A study of Mus musculus with 3 samples.

Results

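The 8 genes described here were grouped as brakes on cytokine and receptor signalling: Socs1, Socs2, Socs3, Cish, Ptpn6, Ptpn11, Inpp5d and Cblb. The grouping is loose for Ptpn11, whose product mainly promotes Ras signalling. The genes were taken as a named list. Each was given a window of its gene body with 20 kb on either side on the mm9 mouse genome. The 8 windows stood among those of 22350 annotated protein-coding genes and held 33 of the 15524 Runx3 peaks and 62 of the 49902 H3K4me1 regions in the deposited lists.

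The study mapped Runx3 binding and H3K4me1 by chromatin immunoprecipitation sequencing (ChIP-seq) in freshly isolated, resting NK cells (NKC) from the spleens of ICR mice, without added treatment; the age of the mice is not given in the sources used here. The series holds 3 samples, 1 per group. Chromatin was precipitated with a polyclonal antibody to Runx3 made in the study's own laboratory, with a monoclonal antibody to H3K4me1, or with serum of non-immunised rabbits (NIS), the control against which the authors called the peaks. The labels describe a sort for NKp46+ cells and the study's methods a sort for DX5+ cells, so the sorting marker is uncertain. Each antibody had 1 list of positions with no height, score or read number. Hence there was no replicate error, the depth at a peak is unknown, and every comparison below is a description without a test. The 95% Wilson intervals given reflect only the number of peaks counted, since peaks of 1 list do not replicate each other.

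Cytokines such as interleukin 2 and interleukin 15 act on NK cells through receptors that carry Janus kinases, which phosphorylate STAT transcription factors. SOCS proteins and CIS, the product of Cish, are induced by STATs and feed back on the receptor and its kinases. The tyrosine phosphatase SHP-1, the lipid phosphatase SHIP-1 and the ubiquitin ligase Cbl-b restrain the same and neighbouring pathways, including signalling from NK cell activating receptors. Runx3 is a DNA-binding factor of the RUNX family that is expressed in NK cells and cytotoxic T cells, and monomethylation of histone H3 at lysine 4 (H3K4me1) marks enhancers and the flanks of active promoters.

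The cell label was compared with fixed marker genes in the same kind of window. All 6 NK cell markers (Ncr1, Klrb1c, Il2rb, Eomes, Tbx21, Prf1) had Runx3 peaks, 3 to 12 each, and a median of 69.3% of their windows lay in H3K4me1 regions. Of the genes taken as markers of other cells, 2 of 3 for B cells, 1 of 3 for T cells and 2 of 3 for myeloid cells had a peak. Ms4a1, Cd8a and Lyz2 had neither a peak nor an H3K4me1 region, and Cd4 had no peak, whereas Itgam had 8 peaks. Itgam was listed as myeloid, but the data used here do not show whether it is particular to myeloid cells. Binding and H3K4me1 are not expression, the lists come from pooled cells, and a mark in fewer cells cannot be told apart from less of it per cell.

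Runx3 peaks were found at 6 of the 8 genes, namely Socs1, Socs3, Ptpn6, Ptpn11, Inpp5d and Cblb, while Socs2 and Cish had none. Over all protein-coding genes, 51.0% had at least 1 peak in the window. H3K4me1 regions were present at 8 of 8, against 74.0% of all protein-coding genes. The genes differ in length, so their peaks are also given per 100 kb of window. The members had a median of 4.93 peaks per 100 kb, compared with a median of 0.459 and an upper quartile of 2.35 over all genes. H3K4me1 regions covered a median of 33.4% of the members' windows, compared with 7.38% over all genes, whose quartiles were 0% and 17.3%.

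By peak density the order was Socs1 (14.4 peaks per 100 kb), Ptpn6 (8.62), Socs3 (6.82), Inpp5d (5.71), Cblb (4.16) and Ptpn11 (1.98), with Cish and Socs2 at 0. The H3K4me1 share gave another order, with Ptpn6 first at 60.6% of the window, then Socs1 (49.9%), Socs3 (48.0%), Cblb (36.0%), Cish (30.8%), Inpp5d (30.6%), Ptpn11 (21.8%) and Socs2 (11.6%). Cish lay next to Inpp5d in H3K4me1 share, although one had no Runx3 peak and the other had 8. With 1 list per antibody, it cannot be said which neighbours in these orders differ beyond error.

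**Figure D1:**
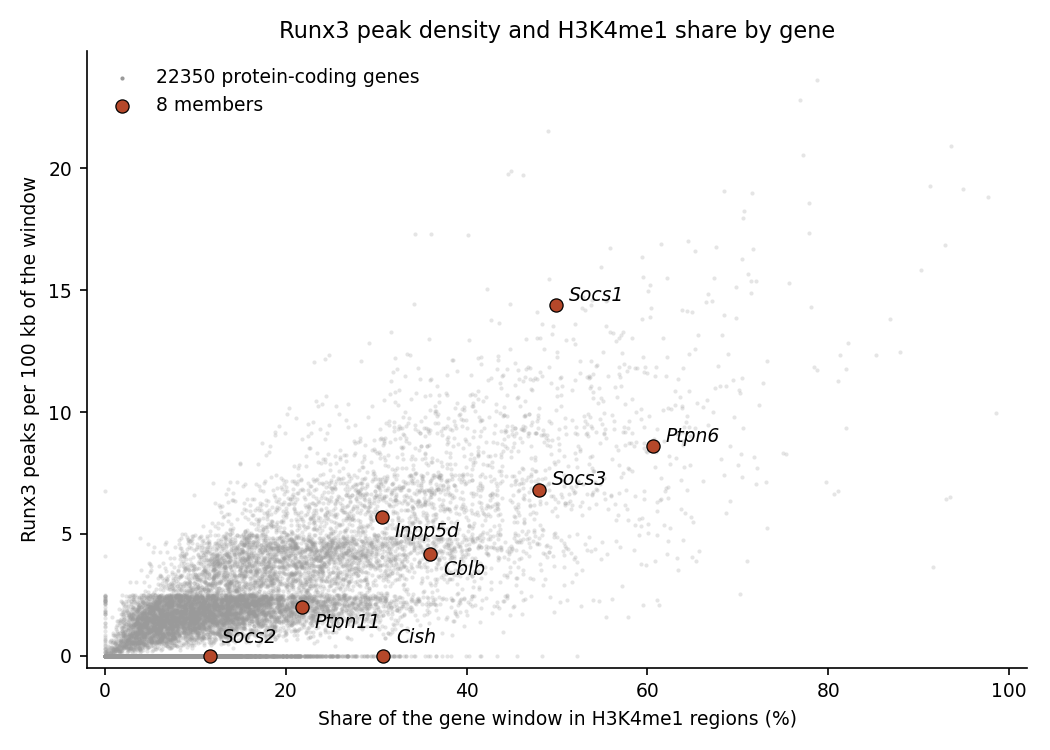
Runx3 peaks per 100 kb of gene window (vertical axis) against the percentage of the window in H3K4me1 regions (horizontal axis), with 1 grey point for each of 22350 protein-coding genes and the 8 members in red. Socs1 sits highest among the members at 14.4 peaks per 100 kb, Ptpn6 farthest right at 60.6%, and Cish and Socs2 lie on the zero line.

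Sequences are shown for the peaks that bring Runx3 closest to an own start of a member, and for the widest remote peak of Inpp5d and of Cblb, the 2 genes with the most peaks. RUNX proteins recognise TGTGGT as well as TGTGGC, and likewise TGCGGT as well as TGCGGC, and matches on either strand are in capitals. Each run is the mm9 sequence of the 300 bases around the peak midpoint, 5′ to 3′ along the gene's strand, so matches nearer the peak edges are not in it. The Socs1 stretch (chr16:10785603-10785902, minus strand) is the promoter and enters the first exon in its last 27 bases, where its only match lies. The Ptpn6 (chr6:124679907-124680206, minus strand), Inpp5d (chr1:89517913-89518212, plus strand) and Cblb (chr16:52129660-52129959, plus strand) stretches are intronic, and the remote Inpp5d stretch (chr1:89504190-89504489, plus strand) lies upstream of the gene.
Socs1 start peak: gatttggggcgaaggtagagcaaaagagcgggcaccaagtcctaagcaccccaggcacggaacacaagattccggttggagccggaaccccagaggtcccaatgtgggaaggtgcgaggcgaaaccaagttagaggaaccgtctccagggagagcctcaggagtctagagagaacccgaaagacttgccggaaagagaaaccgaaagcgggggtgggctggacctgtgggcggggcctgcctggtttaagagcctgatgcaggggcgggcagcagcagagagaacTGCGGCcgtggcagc
Ptpn6 start peak: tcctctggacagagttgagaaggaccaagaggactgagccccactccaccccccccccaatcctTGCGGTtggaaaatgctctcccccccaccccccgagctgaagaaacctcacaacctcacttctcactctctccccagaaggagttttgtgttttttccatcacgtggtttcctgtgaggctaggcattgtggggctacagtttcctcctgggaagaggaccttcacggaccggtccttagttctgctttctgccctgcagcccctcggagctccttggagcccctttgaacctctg
Inpp5d start peak: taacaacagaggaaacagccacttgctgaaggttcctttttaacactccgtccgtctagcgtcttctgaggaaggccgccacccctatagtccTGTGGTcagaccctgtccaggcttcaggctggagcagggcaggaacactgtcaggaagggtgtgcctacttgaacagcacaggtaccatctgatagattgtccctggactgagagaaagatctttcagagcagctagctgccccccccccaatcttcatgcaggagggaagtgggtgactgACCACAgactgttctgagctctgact
Cblb remote peak: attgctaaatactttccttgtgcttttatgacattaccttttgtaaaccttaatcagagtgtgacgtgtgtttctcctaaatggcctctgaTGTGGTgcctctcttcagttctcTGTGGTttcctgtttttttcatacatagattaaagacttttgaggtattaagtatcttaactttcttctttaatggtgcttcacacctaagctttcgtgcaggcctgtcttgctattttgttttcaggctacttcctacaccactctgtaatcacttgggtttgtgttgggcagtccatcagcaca
Inpp5d remote peak: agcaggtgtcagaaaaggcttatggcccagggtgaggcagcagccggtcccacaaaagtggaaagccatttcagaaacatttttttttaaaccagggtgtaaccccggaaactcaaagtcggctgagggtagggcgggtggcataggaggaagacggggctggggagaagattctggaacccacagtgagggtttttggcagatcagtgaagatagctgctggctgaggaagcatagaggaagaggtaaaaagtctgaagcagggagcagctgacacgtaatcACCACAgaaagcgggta

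Socs1 encodes the SOCS protein that inhibits Janus kinases directly. It is a short gene of 1.73 kb (chr16:10783901-10785629, minus strand), and its window of 41.7 kb held 6 peaks. The density was higher than that of 99.8% of all protein-coding genes. Peak midpoints lay at 0.123 and 0.994 kb upstream of the start and at 2.31, 13.2, 15.8 and 16.6 kb downstream of it, past the end of the gene. All 6 were 680 to 849 bp wide. With peaks under 500 bp apart merged, 4 remained at Socs1, and the density rank was not taken for merged peaks. The peak at chr16:10785408-10786096 covered the only annotated start of Socs1. At no other member did a peak cover the 5′ end of the gene.

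H3K4me1 at Socs1 fell into 4 regions that left the start bare. The mark was missing over 1.12 kb, from chr16:10784692 to chr16:10785815, and the start peak straddled the upstream edge of this gap with 40.8% of its length inside H3K4me1. The other 5 peaks lay in H3K4me1 over their whole length. The 3 most remote peaks shared a region of 12156 bp, which is wider than 98.7% of all H3K4me1 regions. No other gene start was nearer to any of the 6 peaks than that of Socs1, although the upstream flank holds 5 other annotated genes (Prm1, Prm2, Prm3, Tnp2 and Gm10343). Prm1, Prm2, Prm3 and Tnp2 belong to the cluster that encodes sperm nuclear proteins.

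Socs3, whose product binds the receptor chain gp130 and Janus kinases, is also short (3.97 kb, chr11:117827393-117831361, minus strand). Its window held 3 peaks in 44.0 kb, a density above that of 95.4% of genes. All 3 midpoints lay past the 3′ end of the gene, at 4.19, 6.19 and 17.7 kb from the 5′ end, and none was upstream. The nearest, at chr11:117826788-117827556, ran into the last exon. The other 2 were at chr11:117824784-117825556 and chr11:117813276-117813959. The first and second shared an H3K4me1 region of 6253 bp and the third lay in one of 6570 bp, so Socs3, like Socs1, combined remote downstream peaks with wide H3K4me1. Unlike Socs1, Socs3 had H3K4me1 over its 5′ end (1922 bp) and no Runx3 peak there.

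Socs2 acts mainly on growth hormone signalling and Cish on interleukin 2 and interleukin 15 signalling in lymphocytes. Neither had a Runx3 peak in its window. The peak nearest to Socs2 (chr10:94847996-94879814, minus strand) was 58.5 kb upstream of the gene at chr10:94938347-94939075 and overlapped no H3K4me1 region. The next was 60.9 kb downstream, 0.187 kb from a start of Cradd. The peak nearest to Cish (chr9:107198357-107205115, plus strand) was 30.4 kb past the gene at chr9:107235558-107237399, 2.52 kb from a start of Hemk1. It was 1842 bp wide, overlapped H3K4me1 and held 12 RUNX matches. The next nearest peak was 231 kb from Cish.

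Cish still carried H3K4me1 over 30.8% of its window in 5 regions, including 1 of 4918 bp over its 5′ end. Among the 10947 protein-coding genes without a Runx3 peak in the window the median share was 0%, and 36 of them (0.329%) had a share at least as large as that of Cish, itself included. The Socs2 share of 11.6%, in 4 regions of 1038 to 2777 bp, was reached by 954 such genes (8.71%). Among genes with a peak the median share was 16.0%. Thus Cish stood above and Socs2 below the median of the genes that Runx3 occupied.

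Ptpn6 encodes SHP-1, the tyrosine phosphatase recruited by inhibitory NK cell receptors. Its window (gene at chr6:124670725-124688732, minus strand) held 5 peaks in 58.0 kb and 11 H3K4me1 regions. The peak density exceeded that of 97.6% and the H3K4me1 share that of 99.3% of genes. Inside the gene were 2 intronic peaks, 806 and 1158 bp wide, at 8.68 and 15.2 kb from the 5′ end. They shared an H3K4me1 region of 13776 bp that covered 8 of the 11 annotated starts of Ptpn6, and the edge of the first lay 928 bp from the start of a shorter, noncoding transcript. The 5′ end itself had no peak and lay in a stretch of 4.18 kb without H3K4me1, 17 bp from its edge.

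The other 3 peaks in the Ptpn6 window lay at the starts of its neighbours. Their midpoints were 5 bp from a start of Emg1, 59 bp from one of Grcc10 and 19 bp from one of Atn1. These were also the only member peaks under 1 kb from the start of another gene, and the lists do not assign a peak to a gene. Hence the density at Ptpn6, in a gene-rich stretch with 5 other protein-coding genes, counts peaks that lie at transcript starts of other genes. Each of these 3 peaks spanned 2 adjacent H3K4me1 regions with 62.3 to 89.5% of its length in the mark. The Atn1 start concerned lies inside that gene and not at its 5′ end. Measured from the 5′ end of Ptpn6, the peak midpoint was at -6.89 kb and the 5′ end of Atn1 at -17.8 kb.

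Ptpn11 encodes SHP-2, a phosphatase that mainly promotes Ras signalling and also acts at inhibitory receptors. It is longer (60.9 kb, chr5:121580542-121641406, minus strand) and had 2 peaks in 101 kb, a density above that of 68.4% of genes. Both lay upstream, at 7.09 and 10.5 kb from the 5′ end, and were closer to Rpl6, at 5997 and 2633 bp from its start. The second, at chr5:121651613-121652102, was the narrowest of all member peaks at 490 bp. Of the 10 H3K4me1 regions, 1 of 976 bp covered the 5′ end, and 9 in all lay within 20 kb of it on either side. H3K4me1 filled 51.2% of the 40 kb around the 5′ end but 21.8% of the whole window. The body of Ptpn11 had no Runx3 peak.

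Inpp5d encodes SHIP-1, the blood cell phosphatase that removes the 5′ phosphate from the lipid made by PI 3-kinase. Its window of 140 kb (gene at chr1:89516887-89617082, plus strand) held 8 peaks, more than any other member but Cblb, at a density above that of 92.9% of genes. Most gathered in the first 30.4 kb. One lay 12.5 kb upstream, and 6 lay in introns at 1.18, 6.28, 17.1, 20.2, 27.7 and 30.4 kb from the 5′ end. After these came a gap of 87.5 kb between midpoints before the last peak, at chr1:89634465-89635040, past the 3′ end of the gene. The last peak was the only one of the 33 that overlapped no H3K4me1 region, and its nearest start was that of Atg16l1, at 17.7 kb.

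The 6 intronic peaks of Inpp5d sat in pairs in 3 successive H3K4me1 regions of 12521, 8612 and 9994 bp. The first of them, at chr1:89517540-89518585, covered the start of a shorter protein-coding transcript at chr1:89518249, and its nearest edge was 653 bp from the 5′ end of the gene. The 5′ end itself was covered by H3K4me1 (1544 bp) and not by Runx3. A further H3K4me1 region of 6769 bp held no peak, and the rest of the gene had no H3K4me1 region.

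Cblb encodes Cbl-b, a ubiquitin ligase that restrains activation of T cells and NK cells. It is the longest member (176 kb, chr16:52031662-52208160, plus strand) and had 9 peaks, the most of any, at a density above that of 86.4% of genes. All 9 were intronic and none lay within 20 kb of the 5′ end. Their midpoints were at 29.9, 33.1, 50.5, 55.4, 59.7, 63.2, 94.6, 98.1 and 151 kb. Wide H3K4me1 regions held 8 of them, with 2 peaks in a region of 15313 bp, 4 in one of 19476 bp and 2 in one of 10579 bp. The last peak, at 151 kb, overlapped only narrower regions of 1350 and 1098 bp. The region of 19476 bp was wider than 99.6% of all H3K4me1 regions. Another wide region, of 11037 bp, just inside the gene, held no peak, and the start had H3K4me1 (1370 bp) without Runx3. No other protein-coding gene lay in the window.

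**Figure D2:**
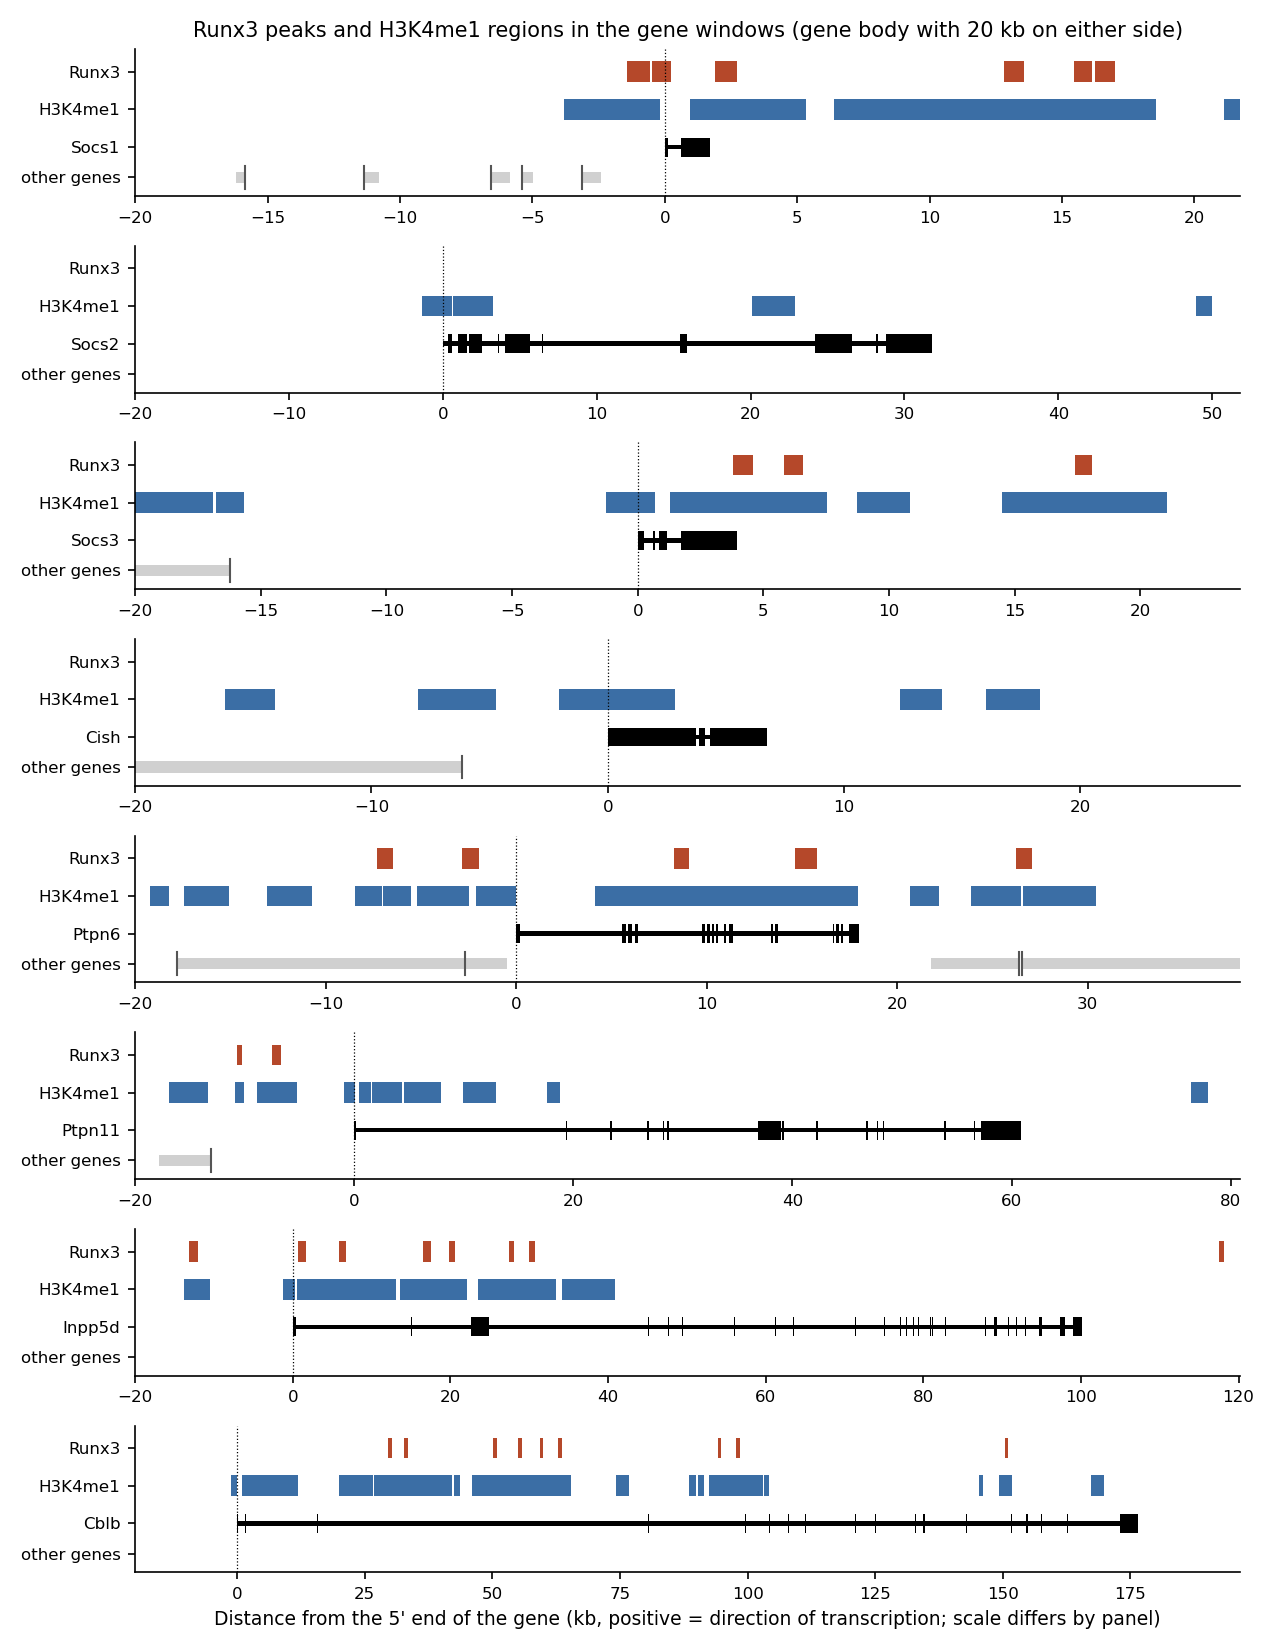
Maps of the 8 gene windows, each drawn by distance from the 5′ end of the gene in kb with transcription to the right, showing Runx3 peaks (red), H3K4me1 regions (blue), the member with its exons (black) and other protein-coding genes with their starts (grey). Of the 6 peaks of Socs1, 4 lie past the end of the gene and 2 at or upstream of its start, the midpoints of all 3 of Socs3 lie past its end, the 9 of Cblb begin 29.9 kb inside it, and Socs2 and Cish have H3K4me1 only.

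Peaks within 1 kb of an own start, measured from the peak edge, were found at 3 of 8 members (Socs1, Ptpn6 and Inpp5d), compared with 28.2% of all genes. Any annotated start counted, and Ptpn6 entered only through a noncoding one. With the 5′ end only, 2 members had such a peak, and that share was not taken over all genes. Within 20 kb of the 5′ end, 5 of 8 members had a peak, compared with 43.1% of all genes. In these equal windows of 40 kb, Socs1 had 6 peaks, Inpp5d 5, Ptpn6 4, Socs3 3 and Ptpn11 2, and Cblb joined Socs2 and Cish at 0. Over all genes the median was 0 and the highest was 10. Thus the peaks of Cblb entered only because the window follows the whole gene body.

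H3K4me1 covered the 5′ end of 6 members, all except Socs1 and Ptpn6, whose 5′ ends lay 187 and 17 bp from the mark. Over all protein-coding genes the 5′ end was covered in 34.5%. A Runx3 peak covered the 5′ end of 1 member, Socs1, compared with 21.4% of all genes. Counting every annotated transcript, H3K4me1 covered 33 of the members' 50 starts and Runx3 covered 2, in Socs1 and Inpp5d. The same shares were not taken over all annotated starts. Genes with many annotated starts weigh most in these counts, with 13 in Socs2, 11 in Ptpn6 and 10 in Inpp5d.

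Of the 33 peaks, 32 (97.0%, interval 84.7 to 99.5%) overlapped H3K4me1, and over all Runx3 peaks the share was 95.7%. The midpoint lay inside a region for 30 (90.9%, 76.4 to 96.9%), against 83.6% of all peaks. In both cases the value for all peaks was within the interval. Conversely, 24 of the 62 H3K4me1 regions held a Runx3 peak (38.7%, against 28.6% of all regions). Regions of 10 kb or more made up 8 of the 62, at Socs1, Socs3, Ptpn6, Inpp5d and Cblb, compared with 1.99% of all H3K4me1 regions. Of these 8, 7 held a Runx3 peak, and 87.1% of all regions that wide did so. The wide region at Socs3 crossed the upstream edge of the window, and its Runx3 peak lay outside the window, in the direction of Pgs1. The members' peaks had a median width of 806 bp, close to 825 bp over all peaks, whereas the median width of their H3K4me1 regions was 2468 bp, compared with 1801 bp. A wide region touches a gene window more readily than a narrow one, so the comparisons with all H3K4me1 regions are not like for like. Cblb, the longest member, held 4 of the 8 regions of 10 kb or more.

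By distance of the midpoint to the nearest annotated start of any gene, 6 peaks (18.2%) were under 1 kb away, 6 (18.2%) at 1 to 5 kb and 21 (63.6%) at 5 to 50 kb, and none was farther. Over all Runx3 peaks these shares were 39.1%, 15.8% and 36.5%, with 8.64% over 50 kb away. A window of 20 kb around a gene limits how far from a start a peak can lie, except inside long genes, so the classes are not like for like. The absence of peaks over 50 kb away also rests on noncoding starts. With starts of protein-coding transcripts only, 4 peaks lay that far, all in Cblb. Relative to the member itself, 17 midpoints were intronic, 7 upstream and 9 downstream, and none was in an exon. The intronic ones belonged to Cblb (9), Inpp5d (6) and Ptpn6 (2).

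RUNX matches were present in 30 of the 33 peaks (90.9%, interval 76.4 to 96.9%), compared with 93.3% of all Runx3 peaks. There were 79 in all, with a median of 2 per peak in the members and in the whole list. The peak 0.994 kb upstream of Socs1 had the most, at 6, and TGTGGT was the most frequent form, in 66.7% of member peaks and 65.5% of all. The central 200 bp held a match in 21 peaks (63.6%, 46.6 to 77.8%), against 69.1% of all peaks. The 3 peaks without a match were those at chr1:89546867-89547622 in Inpp5d, chr11:117813276-117813959 at Socs3 and chr16:52086726-52087378 in Cblb. They lay in H3K4me1 regions of 9994, 6570 and 19476 bp, the first and last of which also held peaks with a match. Of all 33 member peaks, 32 overlapped H3K4me1.

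Other factors' motifs were searched on both strands in the same peaks. ETS matches (AGGAAGT as well as CGGAAGT) were found in 16 peaks (48.5%, interval 32.5 to 64.8%), against 41.8% of all Runx3 peaks, and Cblb with 6 and Ptpn6 with 4 had the most such peaks. RUNX and ETS matches with centres within 50 bp were found in 4 peaks (12.1%, against 15.8% of all peaks). AP-1 matches (TGACTCA as well as TGAGTCA) were found in 7 (21.2%, 10.7 to 37.8%), against 16.5%, and 4 of these peaks were in Inpp5d. No match of one family overlapped a match of another.

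STAT matches (TTCNNNGAA, where N is any base) were searched because STATs act downstream of the receptors that SOCS proteins restrain. They were found in 12 peaks (36.4%, interval 22.2 to 53.4%), compared with 22.3% of all Runx3 peaks, a value at the lower end of the interval. At Socs1, 5 of the 6 peaks held such a match, and the peak 13.2 kb downstream held 2. Ptpn6, Inpp5d and Cblb each had 2 peaks with a match, Socs3 had 1 and Ptpn11 had none. All 12 of these peaks also held a RUNX match. The central 200 bp held a STAT match in 4 peaks, and the matching share over all Runx3 peaks was not taken. A match is a string of letters and says nothing of whether a STAT binds there.

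**Figure D3:**
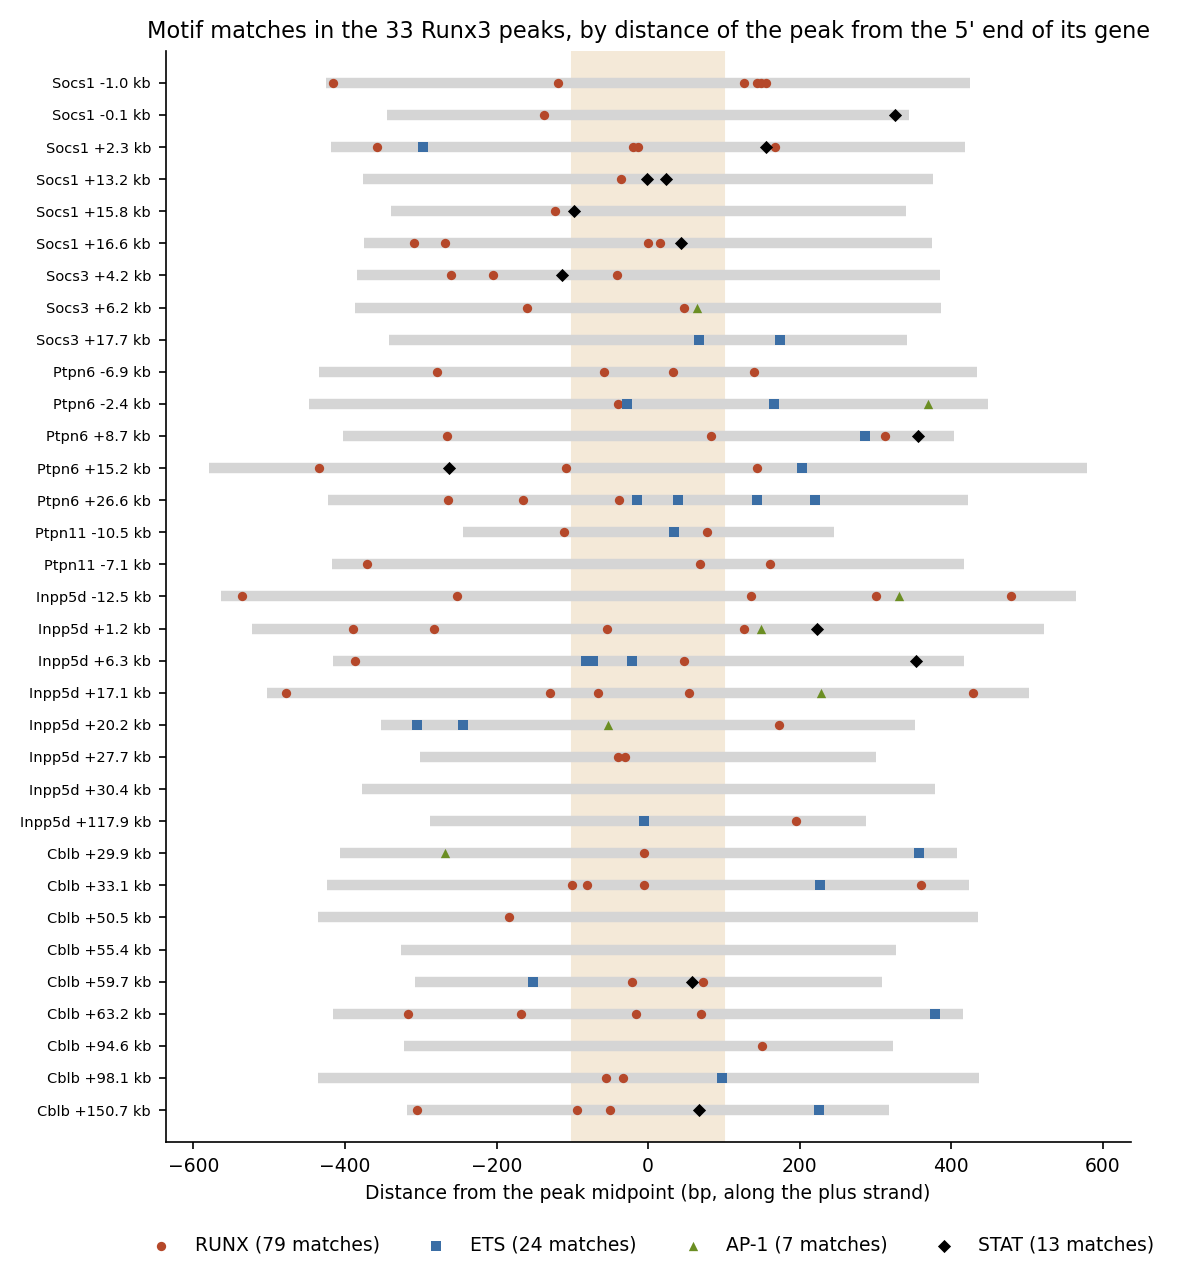
Matches to the RUNX, ETS, AP-1 and STAT motifs (79, 24, 7 and 13 matches) by distance from the peak midpoint in bp, for each of the 33 peaks drawn as a grey bar of its width and named by gene and by distance of its midpoint from the 5′ end. The shaded band is the central 200 bp; 5 of the 6 Socs1 peaks carry a STAT match, and 3 peaks carry no RUNX match.

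The promoters of 7 members could be read from RefSeq (GRCm38.p6, 250 bases before to 50 after a start) and were located in mm9 by exact match. RefSeq starts may differ from the GENCODE 5′ ends used above. Runx3 covered the Socs1 promoter in full and none of the other 6. Coverage by Runx3 or H3K4me1 was not counted over all RefSeq promoters. H3K4me1 covered all of the Cish, Inpp5d and Cblb promoters, 92.0% of that of Ptpn11, 81.3% of Socs3, 76.3% of Ptpn6 and 21.3% of Socs1. RUNX matches were in the promoters of Socs1 and Ptpn11, 1 each, and 45.2% of all 32851 RefSeq promoters held one. Inpp5d had 2 ETS matches and Ptpn6 had 1 (15.1% of all promoters), and no promoter had an AP-1 match (5.20%).

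STAT matches were in the Cish and Socs3 promoters, and 8.30% of all promoters held one. Cish had 2, centred 4 and 15 bases after the RefSeq start, and Socs3 had 1, centred 150 bases before it. None lay in a Runx3 peak and all lay in H3K4me1 regions. These sites were chosen for printing after their values were seen. The runs are mm9 sequence, 5′ to 3′ along the gene's strand, with the match in capitals: Cish at chr9:107198980-107199008 and chr9:107198991-107199019 (plus strand, overlapping stretches, in an exon of the longest GENCODE transcript) and Socs3 at chr11:117830816-117830844 (minus strand).
Cish first match: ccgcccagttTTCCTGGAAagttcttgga
Cish second match: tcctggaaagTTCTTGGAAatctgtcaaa
Socs3 match: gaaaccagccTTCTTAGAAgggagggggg

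The members were set beside 21 other negative regulators of cytokine and lymphocyte signalling, which included further SOCS, PIAS, Cbl, phosphatase and adaptor genes. Of these, 16 had a Runx3 peak (76.2%, against 6 of 8 members), with a median of 2.01 peaks per 100 kb and 26.9% of the window in H3K4me1. The highest were Dok2 (11.4 peaks per 100 kb), an adaptor that recruits RasGAP, Pias4 (9.15), a SUMO ligase that acts on STATs, and Ptpn1 (6.87), a phosphatase of Janus kinases. Cblc, Inppl1, Pias1, Socs4 and Socs7 had no peak, with 14.2%, 10.3%, 21.3%, 27.2% and 22.5% of their windows in H3K4me1. Of the members without a peak, Cish had 30.8% and Socs2 11.6%. Cblc and Inppl1 are relatives of Cblb and Inpp5d, and why these genes had no peak was not tested. A peak within 1 kb of an own start was present at 11 of the 21, compared with 3 of the 8 members.

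Among 22 listed receptors, kinases and STATs of cytokine signalling, 21 had a peak (95.5%). Their median of 4.49 peaks per 100 kb and 34.0% H3K4me1 were close to the members' 4.93 and 33.4%. All 81 of their peaks overlapped H3K4me1, and 17 of the 22 genes had a peak within 1 kb of an own start. The highest were Il2rb (12.8 peaks per 100 kb), the shared beta chain of the interleukin 2 and interleukin 15 receptors and also in the NK cell marker list, Il18r1 (12.0) and Il21r (9.98). The lowest were Il7r (0), Jak2 (0.988) and Stat3 (2.12). Socs1, at 14.4 with 6 peaks, was denser than each gene of both lists. With peaks under 500 bp apart merged, Socs1 had 4 peaks, and the lists were not compared for merged peaks. Since these lists were compiled with earlier results of the data known and there is 1 Runx3 list, the differences between lists were not tested.

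**Figure D4:**
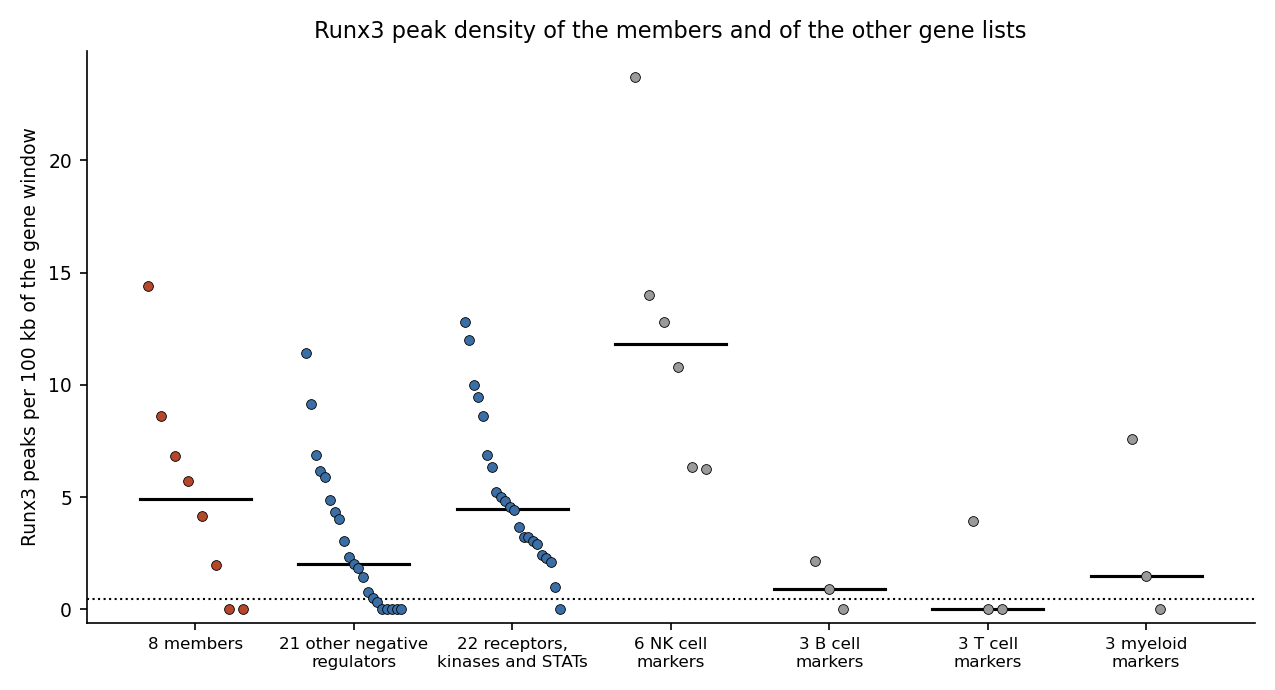
Runx3 peaks per 100 kb of gene window for the 8 members (red), 21 other negative regulators, 22 receptors, kinases and STATs (blue) and the cell type markers (grey), 1 point per gene, with the median of each list as a bar and the median of all protein-coding genes (0.459) as a dotted line. The members' median of 4.93 lies near that of the receptors, kinases and STATs (4.49) and above that of the other negative regulators (2.01).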

How the data were processed

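ChIP-seq was performed with 3 samples of resting splenic NKC, precipitated with anti-Runx3, anti-H3K4me1 or NIS. According to the labels and to the methods of the study, the authors aligned 40 bp reads to mm9 with ELAND (CASAVA version 1.7 is named in the submitters' processing notes), kept unique alignments and called regions with MACS on joined reads of the biological repeats, with NIS as control and the larger data set scaled to the smaller. The labels describe each sample as a first experiment, so it is uncertain which reads made the lists. The deposited files hold 2 lists of region positions with 0 filled score columns. No NIS list was analysed here.

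Regions were assigned to windows of the gene body and 20 kb on either side (GENCODE mouse M1 annotation, mm9) when they shared at least 1 bp, with Python 3.11.15. Motifs were searched on both strands with pysam 0.24.0, and RefSeq promoters were placed in mm9 by exact match. Wilson intervals came from scipy 1.17.1 and plots from matplotlib 3.10.9. The counting was tested on simulated lists with known answers. All 8 members are described. Printed peak stretches followed a rule: the peak nearest an own start within 1 kb, and the widest peak over 5 kb from any start for the 2 members with the most peaks. The 3 highest and 3 lowest genes of each other list were named, and ties at 0 were named in full. The members and gene lists were chosen with earlier results of these data known. Alternatives changed the window, the overlap rule, the width of regions, the set of starts and the stretch searched for motifs. Another alternative merged Runx3 peaks under 500 bp apart.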

Additional observations from a re-analysis of the deposited data

How the results depend on the processing

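No paired analysis was possible because each antibody had 1 list, and for the same reason no replicate could be left out. A count or median was taken as moved when it differed from the reported value by more than 1.5 times, and the overlap when it left the reported Wilson interval. By this rule 15 of 54 alternative values of the results over all members moved and 39 did not. The number of Runx3 peaks was 33 as reported, 19 in gene bodies alone, 20 within 20 kb of the 5′ ends and 15 among peaks wider than the median. H3K4me1 regions numbered 62 as reported and 35, 40 and 40 under those alternatives, and the median H3K4me1 share was 50.3% within 20 kb of the 5′ ends. The overlap with H3K4me1 was 100% in gene bodies, with 5 kb flanks and within 20 kb of the 5′ ends, since these windows leave out the downstream peak at Inpp5d. With starts of protein-coding transcripts only, 4 peaks lay over 50 kb from a start, and with 1 start per protein-coding gene 7 did, all of them in Cblb. The central 200 bp held ETS, AP-1 and STAT matches in 6, 2 and 4 peaks, being shorter than the peaks. Of 56 counts for single genes, 17 moved, by more than 1.5 times or to or from 0. Ptpn11 had no peak in its body or within 5 kb, Cblb none within 20 kb of its 5′ end and Socs3 none wider than the median, whereas Cish gained 1 with 50 kb flanks. Socs2 had no peak under any of these windows. The lists give no depth, so a region missing from a list may have been too weak to be called.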
